A study of Mus musculus with 6 samples.

Results

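The potassium channel genes are the genes whose symbols start with Kcn. They were read from probe sets that the platform annotation pairs with 1 gene, leaving out Kcnj10, Kcnq1 and Kcnq1ot1, and the probe set with the highest mean over all 6 arrays was used where a gene had several. The rule found 90 genes, from 93 probe sets, among 19937 genes with a single-gene probe set and 22961 tested probe sets. Expression was measured on 1-colour Affymetrix whole-transcript arrays in neural stem cells and progenitors from mice of the 129SV strain aged 8 weeks, grown as neurospheres with EGF and bFGF, replated on a coated surface and collected while proliferating at passage 2. The 3 Sirt1 inactive cultures came from NestinCre;Sirt1lox/lox mice, in which a Cre recombinase driven by the Nestin promoter acts on floxed Sirt1 alleles in neural stem and progenitor cells. The 3 control cultures came from Sirt1lox/lox mice, which carry the same floxed alleles and no Cre, so Cre itself is part of the difference. The sources used here do not say how many mice gave each culture. All values are log2 expression values made with RMA, and a difference is Sirt1 inactive minus control.

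Potassium channels are membrane proteins that let potassium ions leave or enter the cell and so set the resting potential and end the action potential. Voltage-gated channels open on depolarisation, inward rectifiers and two-pore domain channels carry the resting conductance, a further class opens on intracellular calcium or sodium, and auxiliary subunits alter the gating and trafficking of the pores. Glia and neural progenitors are dominated by resting conductances, and many voltage-gated subunits appear as neurons mature. The genes were sorted by symbol into 24 voltage-gated pore subunits, 10 electrically silent voltage-gated subunits, 8 calcium- or sodium-activated channels, 14 inward rectifiers, 14 two-pore domain channels, 17 auxiliary subunits and 3 antisense transcripts.

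Sirt1, read first as a check of the labels, was 8.26, 8.33 and 8.25 in Sirt1 inactive cultures and 8.73, 8.78 and 8.55 in control cultures, a difference of -0.41 (SE 0.08) with no overlap. It missed the threshold over the whole table (limma, unadjusted p = 0.00101, adjusted p = 0.959), and the sources used here do not name the floxed exons, so the value need not show a partial deletion. Of 9 measured neural stem cell and progenitor markers, 8 lay above the array median on every array, among them Nes, Sox2 and Fabp7. Array medians over the tested probe sets ran from 7.88 to 7.90 in Sirt1 inactive cultures and from 7.90 to 7.91 in control cultures. Control replicate 3 stood apart from the other arrays: its median absolute distance to their mean was 0.184 over the potassium channel genes, against 0.066 to 0.104 for the other 5. Where leaving this array out moves a gene's difference printed below by over 1.5 times, both values are given. Genes named without a difference are not covered by this.

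Most potassium channel genes had lower values in Sirt1 inactive cultures, by small amounts, and none passed the test. Of the 90 genes, 66 (73.3%) had a difference below 0, against 60.1% of all tested probe sets. Subtracting array medians gave 71.1% of the genes, against 50% of all tested probe sets. Among probe sets above the median brightness it was 75.9% of 29 genes, against 51.4%. The median difference was -0.07, against -0.02 for all tested probe sets, and single genes ran from -0.60 to 0.39. In limma's fit over all probe sets, 0 of the 90 genes had an adjusted p under 0.05 (smallest adjusted p = 0.959), as did 0 of 22961 probe sets (percent called 0%). At an unadjusted p under 0.05 there were 7 potassium channel genes (7.78%), 6 lower and 1 higher, against 3.61% of all tested probe sets, 2.63% lower and 0.984% higher. The values of the 2 genotypes did not overlap for 11 genes (12.2%), all lower, against 9.33% of all tested probe sets, 6.71% lower and 2.62% higher. With array medians subtracted, 7 genes were lower and 2 higher without overlap, against 3.99% and 4.56% of all tested probe sets. Without control replicate 3 the genes below 0 were 56 (62.2%), against 53.7% of all tested probe sets, and the median difference was -0.03. In that fit 4 genes, all lower, had an unadjusted p under 0.05 (4.44%, against 2.81% of all tested probe sets): Kcns1, Kcnh8 and Kcnt1 of the 7, and Kcnj2.

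Replicate numbers in the titles are shared by the genotypes, and arrays of one number deviated together. Within same-numbered pairs, 33 of the 90 genes (36.7%) were lower in 3 of 3 pairs and 5 were higher in 3 of 3 pairs, against 20.7% and 10.9% of all tested probe sets. With the replicate number as a block, 17 genes (18.9%) had an unadjusted p under 0.05, 14 lower and 3 higher, against 7.58% of all tested probe sets, 5.08% lower and 2.50% higher. These included 5 of the 7 genes above; Kcnk1 (unadjusted p = 0.0516) and Kcna1 (0.0685) were no longer among them. None passed over all probe sets in that fit either (smallest adjusted p = 0.51). Leaving out control replicate 3 alone keeps Sirt1 inactive replicate 3, which shares its number. Both arrays of number 3 were therefore also left out, a setting added after the data were seen. Then 59 of the 90 genes (65.6%) had lower values in Sirt1 inactive cultures, while the share over the whole table was 54.1%. The median difference of the 90 genes was then -0.05, between -0.03 without control replicate 3 alone and -0.07 over all arrays.

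**Figure D1:**
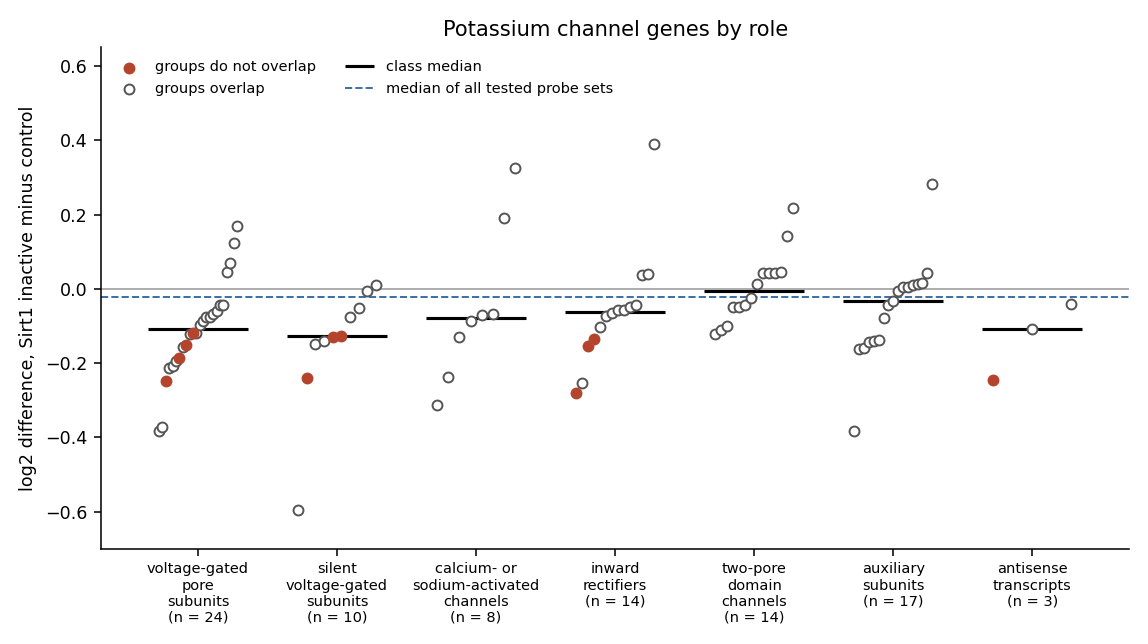
Log2 difference, Sirt1 inactive minus control, of each of the 90 potassium channel genes, in columns by role. Filled points are the 11 genes whose genotypes do not overlap, all below 0, black bars are class medians, and the dashed line is the median of all 22961 tested probe sets (-0.02).

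The silent subunits form no channel alone and change the gating of Kv2 pores they join. Their median difference was -0.13, or -0.05 without control replicate 3, with 9 of 10 below 0 and 6 of 10 lower in 3 of 3 pairs. Kcnv1, a silent subunit found in brain, had the largest difference of all 90 genes. It read 8.82, 8.84 and 9.57 in Sirt1 inactive cultures and 9.41, 9.39 and 10.23 in control cultures. The third culture of each genotype was the highest of its group, and the groups overlapped because the third Sirt1 inactive culture lay above the first 2 controls. The same-numbered pairs differed by -0.59, -0.55 and -0.65. The difference was -0.60 (SE 0.28, 95% interval -1.26 to 0.07), or 0.661 times control, and did not pass (limma, adjusted p = 0.959; unadjusted p = 0.0726). With the replicate block its SE was 0.06 and its unadjusted p 8.31e-05 (limma), with an adjusted p of 0.51. With the block and both arrays of number 3 left out the difference was -0.57 (limma, adjusted p = 0.088). Few arrays remain in the latter fit, so its p rests largely on the variance that limma pools over all probe sets. The block over all 6 arrays also leaves little from which to estimate a gene's own variance, so its p rests in part on that pooled variance. In the fit with no block the difference was -0.32 when control replicate 3 was left out.

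Kcns1, another silent subunit, had the smallest unadjusted p of the 90 genes in the fit without a block. It read 6.87, 6.96 and 6.80 in Sirt1 inactive cultures and 7.13, 7.005 and 7.22 in control cultures. All 3 Sirt1 inactive values lay below all 3 controls, by 0.05 at the closest, and the same-numbered pairs differed by -0.25, -0.05 and -0.42. The difference was -0.24 (SE 0.08; limma, unadjusted p = 0.0175, adjusted p = 0.959). Kcns3 and Kcng3 also did not overlap, with differences of -0.13 each (SE 0.06 and 0.08), and Kcns2 differed by -0.14 (-0.03 without control replicate 3), below the lower quartile on all 6 arrays. Control replicate 3 held the highest value of 9 of the 10 silent subunits.

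Among the voltage-gated pore subunits, 20 of 24 were below 0, with a median difference of -0.11, or -0.04 without control replicate 3. Kcnh8, of the ether-a-go-go-like family, read 6.94, 6.75 and 6.67 in Sirt1 inactive cultures and 7.11, 6.97 and 7.03 in control cultures. The groups did not overlap, and the difference was -0.25 (SE 0.09, unadjusted p = 0.0221; -0.25 without control replicate 3). A dimmer second probe set of Kcnh8 differed by -0.35 (SE 0.14) with overlapping groups. Kcnq5, a subunit of the M-current that restrains neuronal firing, read 7.98, 8.12 and 8.14 in Sirt1 inactive cultures and 8.26, 8.19 and 8.36 in control cultures. These groups did not overlap, with a difference of -0.19 (SE 0.07, unadjusted p = 0.0400). Kcna1, a Kv1 channel of axons, read 7.74, 7.63 and 7.62 in Sirt1 inactive cultures and 7.76, 7.87 and 7.81 in control cultures. The gap between the closest arrays was 0.02, and the difference was -0.15 (SE 0.06, unadjusted p = 0.0493; 0.0685 with the replicate block). Kcnc2, a Kv3 channel of fast-spiking neurons, did not overlap either (-0.12, SE 0.06), but lay below the lower quartile on all 6 arrays.

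Kcna3, a Kv1 channel found in immune cells and in glia, read 8.63, 8.61 and 8.74 in Sirt1 inactive cultures and 8.64, 9.01 and 9.48 in control cultures. The controls spread over 0.84 units while the Sirt1 inactive cultures lay within 0.13. Its difference was -0.38 (SE 0.19), and -0.16 without control replicate 3. Kcnc1, another Kv3 channel, was chosen after its values were seen as one of 4 pore subunits above 0: it averaged 9.97 ± 0.09 in Sirt1 inactive cultures and 9.80 ± 0.15 in control cultures (SD, n = 3 each). Its difference of 0.17 (SE 0.09), or 0.10 without control replicate 3, was higher in 3 of 3 pairs and did not pass (limma, adjusted p = 0.959). The other 3 above 0 were Kcnd1 (0.12), Kcnh1 (0.07, or 0.11 without control replicate 3) and Kcnb2 (0.05, or 0.08).

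**Figure D2:**
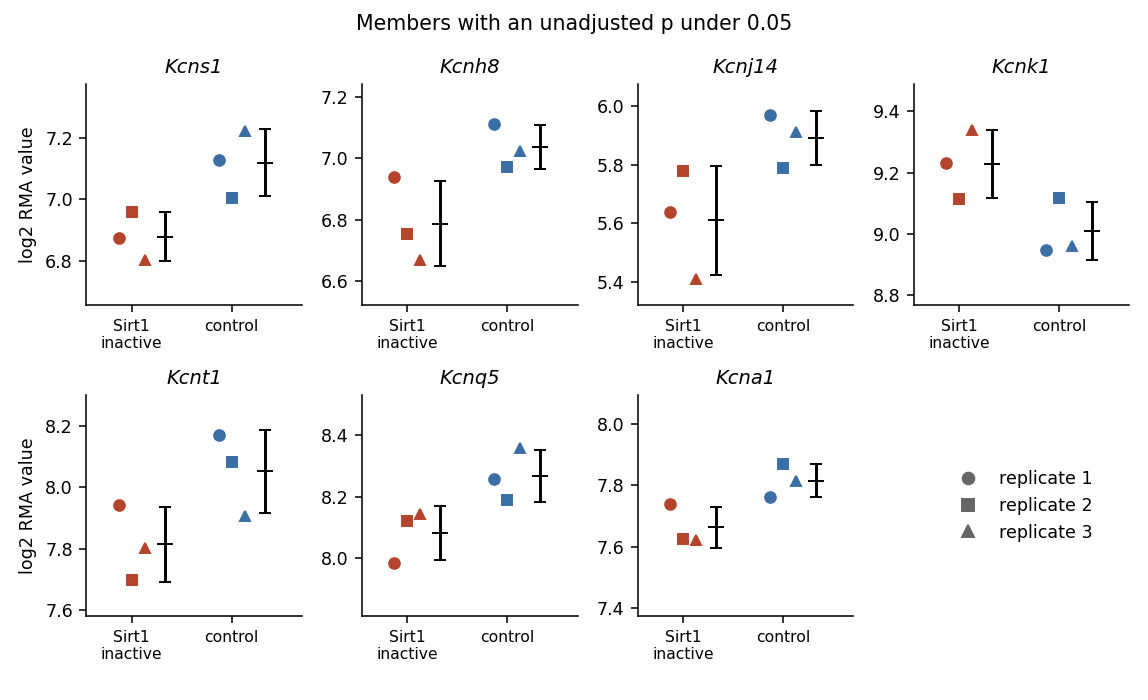
Log2 RMA values (vertical axes, one scale per gene) of the 7 potassium channel genes with an unadjusted p under 0.05, with Sirt1 inactive cultures left of control cultures in each panel. Point shapes give the replicate number and bars the mean ± SD (n = 3). Kcnk1 is the 1 gene of the 7 with higher values in Sirt1 inactive cultures, and Kcnt1 and Kcnk1 are the 2 whose groups overlap.

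The promoters of Kcns1 and Kcnh8, the genes with the smallest unadjusted p, and of Kcnd2, the gene with the widest range over the arrays, are shown because the choice of genes did not use sequence. RefSeq's promoter table (GRCm38.p6) holds windows of 300 bases, from 250 bases before to 50 after a start, for 69 of the 90 genes, 94 windows in all. The printed windows follow 5′ to 3′ on the gene's strand, with CG dinucleotides in capitals: Kcns1 at chr2:164171064-164171363, minus strand, Kcnh8 at chr17:52602459-52602758, plus strand, and Kcnd2 at chr6:21215096-21215395, plus strand.
Kcns1: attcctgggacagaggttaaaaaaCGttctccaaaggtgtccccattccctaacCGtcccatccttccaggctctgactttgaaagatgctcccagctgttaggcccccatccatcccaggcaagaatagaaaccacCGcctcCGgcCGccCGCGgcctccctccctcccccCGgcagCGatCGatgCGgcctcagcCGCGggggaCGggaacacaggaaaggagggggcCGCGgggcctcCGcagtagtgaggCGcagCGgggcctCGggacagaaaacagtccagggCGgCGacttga
Kcnh8: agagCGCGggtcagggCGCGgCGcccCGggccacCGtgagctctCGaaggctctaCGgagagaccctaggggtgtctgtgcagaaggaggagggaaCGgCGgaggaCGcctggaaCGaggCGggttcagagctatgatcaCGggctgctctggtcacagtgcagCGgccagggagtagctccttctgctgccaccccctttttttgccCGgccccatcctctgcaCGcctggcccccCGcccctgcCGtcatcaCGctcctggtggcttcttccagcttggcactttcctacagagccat
Kcnd2: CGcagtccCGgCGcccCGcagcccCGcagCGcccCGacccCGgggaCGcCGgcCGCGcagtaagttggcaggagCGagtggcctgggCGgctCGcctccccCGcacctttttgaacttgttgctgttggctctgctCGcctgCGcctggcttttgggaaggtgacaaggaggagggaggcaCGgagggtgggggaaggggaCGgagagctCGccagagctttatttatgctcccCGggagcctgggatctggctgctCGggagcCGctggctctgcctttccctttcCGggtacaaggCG
These windows hold 22, 21 and 26 CG dinucleotides. At least 20 were found in 26.6% of the 94 windows, against 26.5% of all 32851 windows in the table. By class the share was 47.8% of 23 windows of voltage-gated pore subunits, 3 of 6 of silent subunits, 16.7% of 6 of calcium- or sodium-activated channels, 12.5% of 16 of inward rectifiers, 33.3% of 15 of two-pore domain channels, 11.5% of 26 of auxiliary subunits and 0 of 2 of antisense transcripts. The GC box GGGCGG, sought on both strands, was in 46.8% of the 94 windows against 35.7% of all windows, and the TATA box TATAAA in 5.32% against 13.6%. Windows of one gene can overlap, and a match describes these letters and no site.

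Among the calcium- or sodium-activated channels, 6 of 8 were below 0, with a median of -0.08. Kcnt1, a sodium-activated channel of neurons, read 7.94, 7.70 and 7.80 in Sirt1 inactive cultures and 8.17, 8.08 and 7.91 in control cultures. The groups overlapped only through control replicate 3, the lowest control. The difference was -0.24 (SE 0.09; limma, unadjusted p = 0.0388, adjusted p = 0.959), and -0.31 without control replicate 3 (unadjusted p = 0.0108). Kcnma1, the pore of the large-conductance calcium-activated channel, averaged 9.11 ± 0.34 in Sirt1 inactive cultures and 9.43 ± 0.19 in control cultures (SD, n = 3 each), lower in 3 of 3 pairs, a difference of -0.31 (SE 0.18). Another, dim probe set of Kcnma1 differed by 0.005, or 0.06 without control replicate 3. Kcnn4, the intermediate-conductance channel known from blood cells and microglia, averaged 8.48 ± 0.36 in Sirt1 inactive cultures and 8.16 ± 0.21 in control cultures (SD, n = 3 each), a difference of 0.32 (SE 0.19) that was higher in 2 of 3 pairs. Kcnt2 differed by -0.13, or -0.03 without control replicate 3, and Kcnn1 by -0.07.

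Among the inward rectifiers 11 of 14 were below 0, with a median of -0.06. Kcnj14 read 5.64, 5.78 and 5.41 in Sirt1 inactive cultures and 5.97, 5.79 and 5.91 in control cultures. The groups were separated by 0.01 and every value lay below the lower quartile of its array, where RMA values cannot show whether a transcript is above background. The difference was -0.28 (SE 0.10, unadjusted p = 0.0297). Kcnj11, the pore of the ATP-sensitive channel, averaged 7.79 ± 0.01 in Sirt1 inactive cultures and 7.93 ± 0.07 in control cultures (SD, n = 3 each), without overlap. Kcnj16, a glial and renal channel subunit, read 9.83, 9.76 and 9.95 in Sirt1 inactive cultures and 9.96, 9.95 and 10.09 in control cultures. It was among the 4 genes above the upper quartile on all arrays, with Kcnc1, Kcnd3 and Kcnip3, a set named after its values were seen. Kcnd3 differed by -0.08 and Kcnip3 by -0.16, or by 0.05 and 0.03 without control replicate 3. The lowest Kcnj16 control lay 0.003 above the highest Sirt1 inactive value, and the difference was -0.15 (SE 0.08). Kcnj13, a rectifier of transporting epithelia, had the largest positive difference of the 90 genes, 0.39 (SE 0.23). Its values were 7.81, 8.06 and 7.99 in Sirt1 inactive cultures and 7.54, 8.07 and 7.07 in control cultures. Control replicate 3 was the lowest, and without it the difference was 0.15. Kcnj3, a G protein-gated rectifier, differed by -0.10.

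Kcnj2, a strong inward rectifier that sets the resting potential, is named here after its values were seen. It read 6.79, 6.79 and 6.72 in Sirt1 inactive cultures and 7.42, 7.09 and 6.55 in control cultures. The Sirt1 inactive cultures lay within 0.07 of each other, and control replicate 3 was below them. The difference was -0.25 (SE 0.20) over all arrays and -0.49 (SE 0.10) without control replicate 3, where its unadjusted p was 0.00286 and its adjusted p 0.9996 (limma).

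The two-pore domain channels were split evenly, with 7 above 0 and 7 below, a median of -0.01, and 0.02 without control replicate 3. All 14 spanned less than 0.5 units over the 6 arrays, as did 19761 of the 22961 tested probe sets. Kcnk1, a two-pore channel expressed in astrocytes, was the 1 gene with an unadjusted p under 0.05 and higher values in the fit without a block. It read 9.23, 9.11 and 9.34 in Sirt1 inactive cultures and 8.95, 9.12 and 8.96 in control cultures. The groups overlapped, by under 0.01, at replicate 2, and 2 of 3 pairs were higher. The difference was 0.22 (SE 0.08, 95% interval 0.02 to 0.41; limma, unadjusted p = 0.0320, adjusted p = 0.959), and 0.19 without control replicate 3. Its unadjusted p was 0.0516 with the replicate block, where Kcnc1, Kcnn4 and Kcne1l were the 3 higher genes under 0.05, and 0.0766 without control replicate 3. Kcnk5, an acid-sensitive channel, was higher in 3 of 3 pairs, by 0.14 (SE 0.09). Kcnk13 differed by -0.12. Kcnk7 (-0.11) and Kcnk12 (-0.10) were both at -0.04 without control replicate 3.

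None of the 17 auxiliary subunits had an unadjusted p under 0.05 in the fit without a block, against 3.61% of all tested probe sets. None had groups that did not overlap, against 9.33%, and so few genes would rarely show many at these shares. Their median difference was -0.03, or -0.005 without control replicate 3. With the replicate block Kcnip1 (unadjusted p = 0.0351) and Kcnab2 (0.0397), both lower, and Kcne1l (0.0456), higher, were under 0.05, as were 7.58% of all tested probe sets. Kcnip1, a calcium-binding subunit of Kv4 channels, read 7.46, 6.99 and 7.36 in Sirt1 inactive cultures and 7.48, 7.39 and 8.09 in control cultures. Control replicate 3 was the highest array, and the difference of -0.38 (SE 0.20) was -0.16 without it. Kcne1l, a KCNE-type subunit, was 0.28 higher (SE 0.20) in Sirt1 inactive cultures and 0.05 higher without control replicate 3. Kcnab2 and Kcnab3, beta subunits of Kv1 channels, differed by -0.16 and -0.14, and Kcnip2 by -0.14. Without control replicate 3 these were -0.08 for Kcnab2, -0.02 for Kcnab3 and -0.005 for Kcnip2. Of the 3 antisense transcripts, all were below 0, and Kcnmb4os2, named after its values were seen, did not overlap (-0.25, SE 0.11; -0.15 without control replicate 3).

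**Figure D3:**
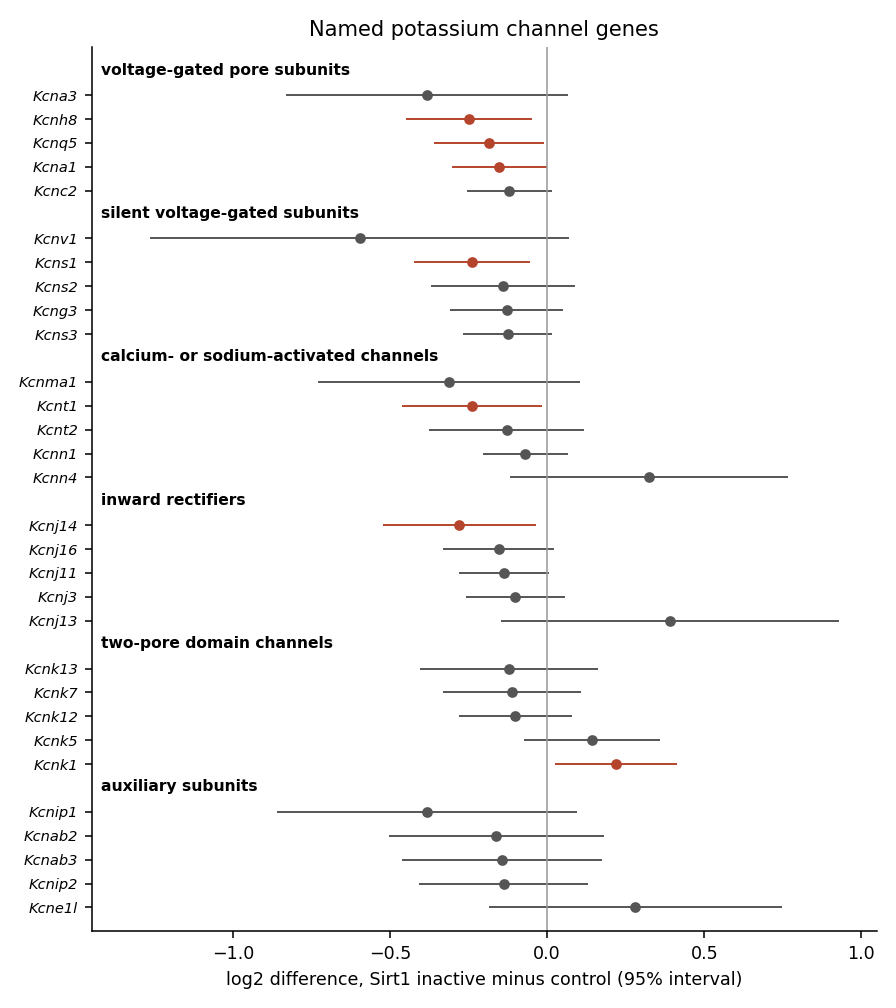
Log2 difference, Sirt1 inactive minus control (horizontal axis), with limma's 95% interval for the 30 potassium channel genes named by rule, grouped by role. Red marks the 7 genes with an unadjusted p under 0.05, whose intervals do not reach 0; the interval of Kcnv1 is the widest, from -1.26 to 0.07.

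Several potassium channel genes varied more between cultures of one genotype than between genotypes. Of the 22961 tested probe sets, 610 had a range over the 6 arrays above 1 log2 unit and 19761 a range under 0.5. Among the 90 potassium channel genes the range exceeded 1 unit for 6, which were chosen by that range, and stayed under 0.5 for 69. Kcnd2, the pore of the Kv4 channels that carry the A-type current of neurons, had the widest range, 1.65 units or 3.15-fold. It read 8.74, 8.99 and 9.69 in Sirt1 inactive cultures and 8.67, 9.54 and 10.33 in control cultures. In both genotypes the first culture was lowest and the third highest, and the groups overlapped. The difference was -0.37 (SE 0.42) over all arrays and 0.03 without control replicate 3. With both arrays of number 3 left out it was -0.24, and with the replicate block over all arrays its unadjusted p was 0.0461 (limma, adjusted p = 0.656). Kcnv1 followed with 1.41 units, and Kcnip1 spanned 1.10.

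The other 3 of the 6 had their lowest value in control replicate 3 and their highest in control replicate 1. Kcnn2, a small-conductance calcium-activated channel, read 8.11, 7.84 and 7.99 in Sirt1 inactive cultures and 8.90, 7.82 and 7.49 in control cultures. Kcnn3, of the same family, read 9.16, 9.05 and 8.92 in Sirt1 inactive cultures and 9.31, 9.03 and 8.22 in control cultures. Kcnmb1, the large-conductance channel's beta subunit of smooth muscle, read 7.66, 7.41 and 7.82 in Sirt1 inactive cultures and 8.18, 7.70 and 6.97 in control cultures. For each of these genes the Sirt1 inactive values lay inside the range of the controls. Their differences were -0.09, 0.19 and 0.02, and without control replicate 3 they were -0.38, -0.13 and -0.31, so Kcnn3 and Kcnmb1 turned.

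**Figure D4:**
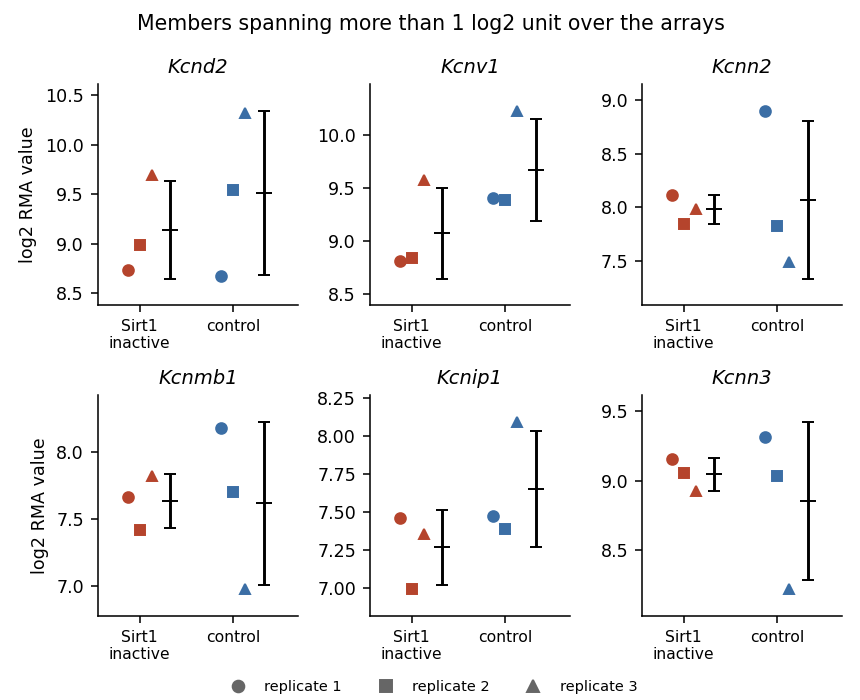
Log2 RMA values (vertical axes, one scale per gene) of the 6 potassium channel genes that span more than 1 unit over the arrays, with Sirt1 inactive cultures left of control cultures and mean ± SD bars (n = 3). Control replicate 3 (triangle) is the highest array for Kcnd2, Kcnv1 and Kcnip1 and the lowest for Kcnn2, Kcnmb1 and Kcnn3.

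Control replicate 3 held the highest value of 53 of the 90 genes (58.9%), against 37.2% of all tested probe sets. The median SD between replicates was 0.09 in Sirt1 inactive cultures and 0.13 in control cultures over the 90 genes, against 0.08 in Sirt1 inactive cultures and 0.10 in control cultures over all tested probe sets. Markers of other cells moved with this array, and their part in the potassium channel values was not tested. The 17 neuroblast and neuron markers, expressed as the mean deviation from each gene's mean over the arrays, ran from -0.13 to -0.001 in Sirt1 inactive cultures and from -0.06 to 0.24 in control cultures, with control replicate 3 the highest. Their summed linear level ran from 9053 to 9944 in Sirt1 inactive cultures and from 9655 to 12030 in control cultures, with 12 of 17 below 0 and none below the lower quartile on all arrays. The 12 astrocyte markers ran from 0.06 to 0.17 in Sirt1 inactive cultures and from -0.53 to 0.11 in control cultures, with control replicate 3 the lowest. Their summed level ran from 27793 to 29212 in Sirt1 inactive cultures and from 20725 to 27828 in control cultures, and 10 of 12 were above 0. Without control replicate 3 the differences of Aqp4 (0.56 to -0.11), Gja1 (0.46 to -0.03), Aldh1l1 (0.14 to -0.002), Fgfr3 (0.12 to -0.03) and Glul (0.04 to -0.07) turned below 0. That of Gjb6 (-0.02 to 0.05) turned above 0, and no neuroblast and neuron marker changed direction. The 10 endothelial and mural markers ran from 0.001 to 0.06 in Sirt1 inactive cultures and from -0.27 to 0.14 in control cultures, with summed levels of 3145 to 4202 in Sirt1 inactive cultures and 2009 to 3867 in control cultures. Of these, Pecam1 and Tek were below the lower quartile on all arrays. In bulk RNA, fewer cells of a type and less RNA per cell cannot be told apart.

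Over the same scale the voltage-gated pore subunits ran from -0.08 to -0.01 in Sirt1 inactive cultures and from -0.08 to 0.19 in control cultures, and the silent subunits from -0.13 to -0.002 in Sirt1 inactive cultures and from -0.01 to 0.23 in control cultures. The inward rectifiers ran from -0.05 to -0.01 in Sirt1 inactive cultures and from 0.02 to 0.03 in control cultures. They were the 1 protein-coding class whose class means did not overlap, a separation of 0.04 noticed after the values were seen. Array medians, which are not subtracted here, were also lower in Sirt1 inactive cultures (7.88 to 7.90) than in control cultures (7.90 to 7.91). Of the 14 inward rectifiers, 5 lay below the lower quartile on all arrays and 1 above the median on all arrays. Of 21 channels listed as mainly neuronal, 18 were measured, with 14 below 0 and a median of -0.11, or -0.04 without control replicate 3. Of the 18, Kcna1 and Kcnt1 (11.1%) had an unadjusted p under 0.05, against 3.61% of all tested probe sets, and 6 lay below the lower quartile on all arrays. The 9 microglia markers, 3 of them below the lower quartile on all arrays, ran from -0.06 to -0.03 in Sirt1 inactive cultures and from 0.01 to 0.10 in control cultures. The 9 oligodendrocyte progenitor markers ran from 0.03 to 0.20 in Sirt1 inactive cultures and from -0.17 to -0.03 in control cultures. Their differences were split, with 5 above 0 and 4 below. Their summed linear level ran from 16497 to 17758 in Sirt1 inactive cultures and from 17203 to 18363 in control cultures.

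**Figure D5:**
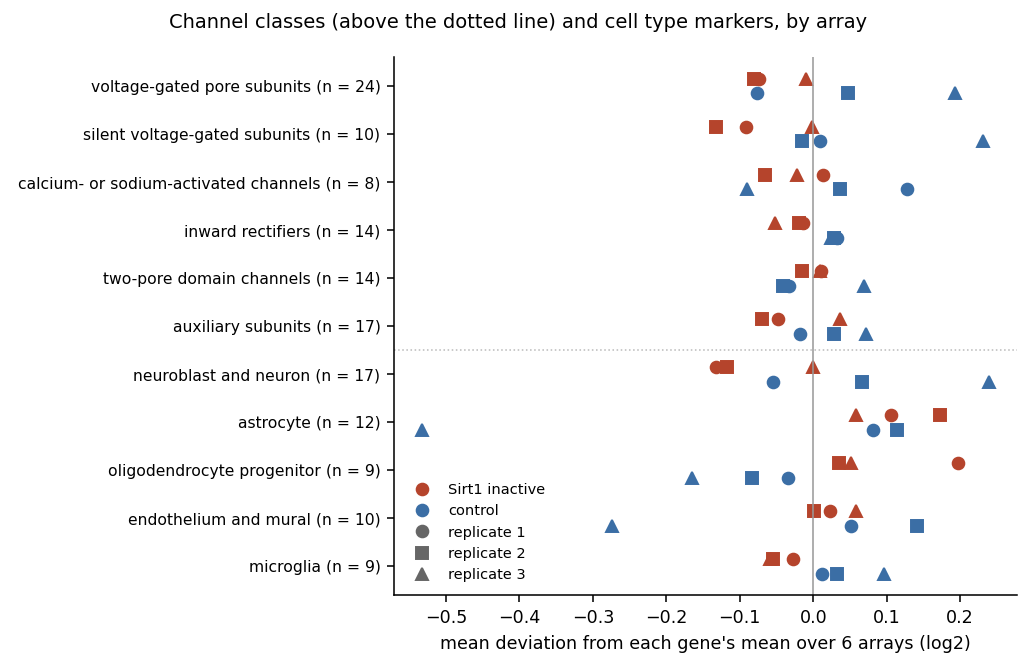
Mean deviation of each channel class and marker list from its genes' means over the 6 arrays (horizontal axis, log2), with red for Sirt1 inactive and blue for control cultures and shapes for the replicate number. Control replicate 3 lies at 0.23 for silent subunits, 0.24 for neuroblast and neuron markers and -0.53 for astrocyte markers.

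Partners of these channels showed small differences as well. Of 33 listed partner and potassium transport genes, 28 were measured, with 19 below 0, a median difference of -0.04 and 1 with an unadjusted p under 0.05 (3.57%, against 3.61% of all tested probe sets). Atp1b2, a glial subunit of the sodium-potassium pump, read 11.49, 11.51 and 11.58 in Sirt1 inactive cultures and 11.38, 11.42 and 11.21 in control cultures. The groups did not overlap, with a difference of 0.19, or 0.12 without control replicate 3 (SE 0.07 over all arrays; limma, unadjusted p = 0.0388, adjusted p = 0.959). Adam22 (-0.17), a partner of Kv1 channels on axons, also had groups that did not overlap, by 0.02 at the closest. Atp1b2 and Adam22 were the 2 of 28 partners without overlap (7.14%, against 9.33% of all tested probe sets). Adam22 did not pass either. Nor did Cntn2 (-0.13) or Cntnap2 (0.24, or 0.13 without control replicate 3), which hold these channels in place. The 9 genes of Kv4 channel complexes (Kcnd, Kcnip, Dpp6 and Dpp10) had a median difference of -0.14, or -0.005 without control replicate 3, which was the highest array for 6 of them.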

How the data were processed

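Per the series' design text and the submitters' processing notes, the authors made the deposited log2 values with RMA, which corrects background, equalises the arrays and summarises probes; the sources used here give neither its version nor the annotation's build. The table holds 34760 probe sets and 0 columns of other samples. GEO's platform annotation pairs 21640 probe sets with 1 gene and 1321 with several; all 22961 were fitted with limma 3.58.1 in R 4.3.3 (genotype as the term, two-sided p, Benjamini-Hochberg, threshold 0.05). No probe set was filtered. RMA compresses differences of dim probe sets. The median SE was 0.080, and the number of arrays limits precision; an exact permutation test of 3 against 3 cannot go below 0.1.

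The genes and lists were chosen with earlier results of these data known. Named were Sirt1, up to 5 genes per role class with the smallest p, other genes with an unadjusted p under 0.05, and 4 partners. Same-numbered arrays' deviations from their genotype's mean correlated at 0.470, 0.358 and 0.270 over probe sets. Every other combination was below 0, to which centring each genotype on its own mean contributes. On these correlations the numbers, which come from the titles, were taken as pairs. The titles do not say what a shared number stands for, and the blocked fit used the same values as the correlations. On simulated data for this comparison, with 22961 probe sets and 200 changed, the fit recovered 50.3% of changes of 0.5, 87.2% of 1 and 97.0% of 2. The simulated noise was independent between arrays, with no effect shared by replicate number and no array standing apart. These shares therefore need not hold for the measured arrays. The titles call the samples biological replicates.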

Additional observations from a re-analysis of the deposited data

How the results depend on the processing

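The count of potassium channel genes with an unadjusted p under 0.05, 7 as reported, was 17 with the replicate block (7.58% of all probe sets), 4 with array medians subtracted (1 higher; 3.14%), 5 after a renewed quantile normalization (1 higher; 3.21%), 3 of 29 among probe sets above the median brightness (2.72%), and 11 with the block and both arrays of number 3 left out (8.59%). Leaving out 1 array at a time it ran from 3 (without Sirt1 inactive replicate 2; 1.99% of all probe sets) to 14 (without control replicate 1; 6.33%), with 4 without control replicate 3. The median difference stayed below 0 under every alternative run, from -0.10 to -0.03. No probe set passed over the whole table except in the fit with the block and without number 3, where 19 did, none of them a potassium channel gene (smallest adjusted p of these genes 0.088). Few arrays remain in that fit, so its p-values rest largely on the variance that limma pools over all probe sets. Of the 30 named genes, 29 kept their direction in all alternatives that included them; Kcnk13 ran from -0.22 to 0.0015 with 1 array left out, above 0 without control replicate 1, and the cause was not tested. Pairing by replicate number brought no gene past the adjusted threshold; at an unadjusted p under 0.05 it kept 5 of the 7 genes, lost Kcnk1 and Kcna1 and added 12. Leaving out 1 array kept from 1 (without control replicate 1 or without Sirt1 inactive replicate 3) to 5 (without control replicate 2) of the 7. Leaving out both arrays of number 3 without the block was added after the data were seen and gave 6 genes (6.67%, against 2.52% of all tested probe sets). Of the 90 genes, 15 lay below the lower quartile on all arrays, where signal over background is not known.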
